A study of Mus musculus with 12 samples.

Results

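The genes described here are the 8 that build, load or switch on major histocompatibility complex (MHC) class II in the mouse liver: H2-Aa, H2-Ab1 and H2-Eb1, Cd74, Ciita, H2-DMa, H2-DMb1 and H2-DMb2. They were chosen by name, with earlier results of these data known. Their values are the rows of the RNA-seq tables whose RefSeq identifiers belong to these genes. This gave 13 of 34933 RefSeq rows, which were summed to 8 of 24910 genes. RNA was measured in 6 livers of C57BL/6J male mice, 2 in each of 3 groups. Sham and VSG mice received a 60 kcal% fat diet from 8 weeks of age for 14 weeks before and 14 weeks after surgery. VSG mice underwent vertical sleeve gastrectomy, in which about 80% of the stomach was removed. In Sham mice the stomach was isolated and pressed with forceps but kept, and both operated groups took liquid diet for 4 days. Control mice (Ctl in the labels) ate chow for 28 weeks and had no operation, so a difference from Control holds diet and surgery together. Open chromatin was mapped in the same livers by FAIRE-seq, which recovers DNA that is not bound by crosslinked protein, as 1 peak list per group over 2 mice.

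MHC class II molecules are pairs of an alpha and a beta chain that show peptides from engulfed material to CD4+ T cells. The chains are made with the invariant chain (Cd74), which fills the peptide groove and steers the complex to endosomes, and H2-DM then exchanges the last fragment of Cd74 for peptide. Ciita is the coactivator that switches the whole set on, through factors already seated on X and Y boxes in front of each gene, and interferon gamma raises Ciita in many cells. In the liver the set is mostly expressed by dendritic cells, B cells and macrophages, with less in endothelium. C57BL/6 mice carry a defective H2-Ea gene, so H2-Eb1 is transcribed without a partner at the cell surface.

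RNA levels are in FPKM, fragments per kilobase of transcript scaled to sequencing depth, which can be compared between genes. Counts of reads were not used here, so the absolute depth behind each value is unknown. The spacing of low FPKM values put the depth of the other 5 libraries at 0.676 to 1.56 times that of Control mouse 1, with VSG mouse 1 the deepest and Sham mouse 1 the shallowest. The share of tested genes that differed more than 2-fold between the mice of a group was 15.3% in Control, 29.3% in Sham and 22.9% in VSG. As the samples are whole liver, more cells of a type and more RNA per cell cannot be told apart.

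The promoters of H2-Ab1, H2-Eb1, H2-Aa and H2-DMb1 are shown because FAIRE peaks lay on each of these starts, in different sets of the 3 lists. Each runs from 250 bases before to 50 after the annotated transcription start, 5′ to 3′ along the gene, in build NCBIM37 (mm9). Capitals mark the X box core, searched as AGNNACNGA, and the Y box, searched as ATTGG, each on both strands, so a reverse match reads as the complement.
H2-Ab1: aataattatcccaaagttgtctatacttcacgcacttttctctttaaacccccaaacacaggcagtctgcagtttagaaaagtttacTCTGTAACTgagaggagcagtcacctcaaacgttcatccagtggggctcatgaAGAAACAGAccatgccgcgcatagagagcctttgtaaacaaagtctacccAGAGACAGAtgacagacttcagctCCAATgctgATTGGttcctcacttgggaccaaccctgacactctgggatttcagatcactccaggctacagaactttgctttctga
H2-Eb1: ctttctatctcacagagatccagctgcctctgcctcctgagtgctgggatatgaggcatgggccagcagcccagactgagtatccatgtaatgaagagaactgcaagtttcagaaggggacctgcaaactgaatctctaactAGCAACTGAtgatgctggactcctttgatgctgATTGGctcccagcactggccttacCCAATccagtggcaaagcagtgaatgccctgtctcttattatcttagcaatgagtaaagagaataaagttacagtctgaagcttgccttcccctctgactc
H2-Aa: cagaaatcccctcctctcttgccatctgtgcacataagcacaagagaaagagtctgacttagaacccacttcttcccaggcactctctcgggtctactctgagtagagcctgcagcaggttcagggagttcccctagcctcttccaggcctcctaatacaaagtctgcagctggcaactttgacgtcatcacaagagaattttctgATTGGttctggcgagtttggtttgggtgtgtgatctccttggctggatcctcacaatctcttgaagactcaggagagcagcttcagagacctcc
H2-DMb1: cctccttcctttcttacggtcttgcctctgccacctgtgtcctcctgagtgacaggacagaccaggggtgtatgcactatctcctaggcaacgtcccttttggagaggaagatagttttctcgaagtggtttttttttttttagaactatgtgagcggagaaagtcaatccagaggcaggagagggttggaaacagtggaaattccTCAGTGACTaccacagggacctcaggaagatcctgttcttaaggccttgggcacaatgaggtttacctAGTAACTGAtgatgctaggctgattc

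These windows lie at chr17:34399904-34400203 on the plus strand for H2-Ab1, chr17:34442578-34442877 on the plus strand for H2-Eb1, chr17:34424723-34425022 on the minus strand for H2-Aa and chr17:34289767-34290066 on the plus strand for H2-DMb1. The H2-Ab1 and H2-Eb1 promoters held an X box core ahead of a Y box on the plus strand with the same gap of 24 bases between them. The pair began 60 bases before the H2-Ab1 start and 108 before that of H2-Eb1. A pair with a gap of 10 to 40 bases was present in 0.405% of the 22238 promoters of protein-coding genes. The X box core was found in 5 of the 8 promoters (16.6% of all promoters) and the Y box in 6 (37.8%). H2-Aa had a Y box 44 bases before its start and no match to the X box core as spelled here. In H2-DMb1 an X box core lay after the start, from base 24 to base 32. The interferon gamma activated site TTCNNNGAA (7.79% of all promoters) and the interferon response letters GAAANNGAA (8.83%) matched none of the 8 windows. A match is letters in a window, and the window is as annotated here.

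Most of the 8 genes were high in the same pair of livers, Sham mouse 1 and VSG mouse 2, which belong to different groups. These were the highest 2 mice for 6 of the 8 genes (H2-Aa, H2-Ab1, H2-Eb1, Cd74, H2-DMa and H2-DMb1), and not for H2-DMb2 or Ciita. The same 6 genes passed a filter of 1 FPKM in at least 2 mice. H2-DMa passed it through these 2 mice alone, and H2-DMb1 passed it through the 4 operated mice alone. Of the 9869 genes that passed it, 9.53% had this pair as their highest 2 mice. Summed over the 8 genes, the level was 41.1 and 25.3 FPKM in Control mice 1 and 2, 91.4 and 38.7 in Sham mice 1 and 2, and 44.2 and 107.5 in VSG mice 1 and 2. Sham mouse 2 and VSG mouse 1 thus lay close to Control mouse 1, while Control mouse 2 was the lowest. The lowest level was in Control mouse 2 for 6 of the 8 genes, a count for which the share of all genes was not taken. H2-Ab1, lowest in VSG mouse 1, and Ciita, listed at 0 in both VSG mice, were the other two.

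**Figure D1:**
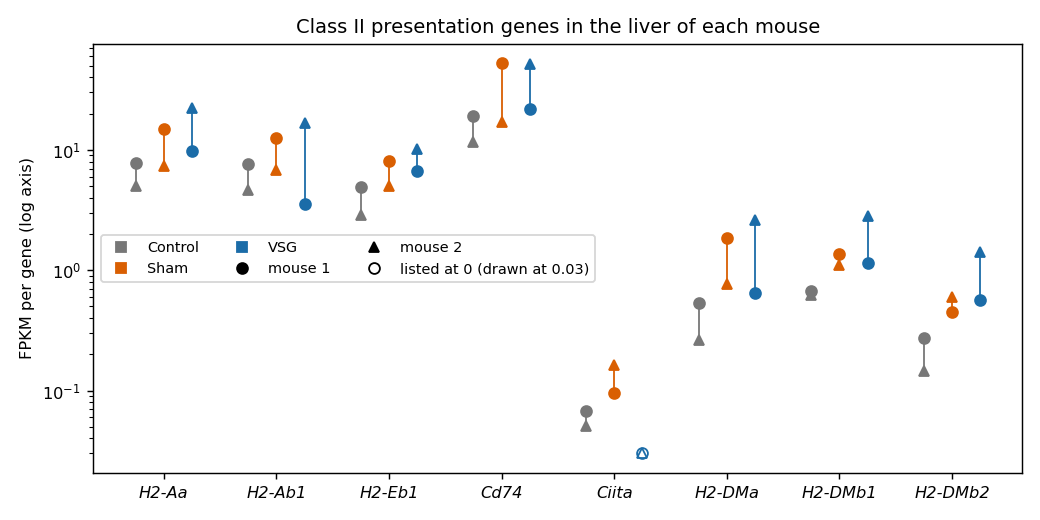
FPKM of the 8 genes (log axis) in each of 6 livers, with Control in grey, Sham in orange and VSG in blue, circles for mouse 1 and triangles for mouse 2, and lines joining the mice of a group. Sham mouse 1 and VSG mouse 2 sit at the top for H2-Aa, H2-Ab1, H2-Eb1, Cd74, H2-DMa and H2-DMb1, and open symbols mark Ciita listed at 0 in both VSG mice.

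The chains that form the peptide groove were expressed at 2.86 to 22.3 FPKM. H2-Aa (NM_010378), the alpha chain of the I-A molecule, was 7.82 and 4.99 FPKM in Control, 14.89 and 7.38 in Sham and 9.78 and 22.3 in VSG mice, here and below as mouse 1 and then mouse 2. Both VSG mice were above both Control mice, whereas the Sham and Control ranges overlapped. H2-Ab1 (NM_207105), the beta chain that pairs with it, was 7.66 and 4.665 FPKM in Control, 12.45 and 6.85 in Sham and 3.57 and 16.58 in VSG mice. VSG mouse 1 held the lowest and VSG mouse 2 the highest level of H2-Ab1 of all 6 mice, a 4.64-fold gap within a group, so no group stood apart. H2-Eb1 (NM_010382), the beta chain of the I-E molecule, was 4.93 and 2.86 FPKM in Control, 8.05 and 4.975 in Sham and 6.71 and 10.22 in VSG mice. Both mice of each operated group were above both Control mice for H2-Eb1, by a margin of less than 0.1 FPKM in the case of Sham mouse 2.

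The partner chains did not keep a fixed ratio in every liver. H2-Aa was 1.02 to 1.35 times H2-Ab1 in 5 mice and 2.74 times in VSG mouse 1. H2-Eb1 over H2-Ab1 was 0.613 to 0.726 in those 5 mice and 1.88 in VSG mouse 1. The ratio of H2-Eb1 to H2-Aa, which leaves H2-Ab1 out, was 0.687 in VSG mouse 1 and 0.458 to 0.674 in the other 5. The departure in that library was therefore in the H2-Ab1 value. The 3 other genes of class II chains that had rows were near the floor in every liver, at no more than 0.06 FPKM for H2-Eb2 and 0.50 and 0.45 FPKM for H2-Oa and H2-Ob, the chains of the H2-O molecule that restrains H2-DM. Each of the 3 was highest in VSG mouse 2.

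Cd74 was the most abundant of the 8 genes in every mouse. Its level was 19.1 and 11.7 FPKM in Control, 52.3 and 16.9 in Sham and 21.8 and 51.5 in VSG mice. Sham mouse 1 was 3.09-fold above Sham mouse 2 and VSG mouse 2 was 2.36-fold above VSG mouse 1, so the Sham and Control ranges overlapped. Cd74 has 2 rows, NM_001042605 and NM_010545, and the first made up 14.3% to 24.4% of the total, with the highest share in Control mouse 1. Cd74 was 2.23 to 2.44 times H2-Aa in 5 mice and 3.51 times in Sham mouse 1.

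H2-DM was far less abundant than the chains it loads. H2-DMa (NM_010386), its alpha chain, was 0.533 and 0.262 FPKM in Control, 1.87 and 0.766 in Sham and 0.643 and 2.61 in VSG mice. All 4 operated mice were above both Control mice, with Sham mouse 2 and VSG mouse 1 close to Control mouse 1. H2-DMb1 (NM_010387), a beta chain, was 0.669 and 0.627 FPKM in Control, 1.35 and 1.10 in Sham and 1.14 and 2.82 in VSG mice. It showed the smallest gap between the Control mice and between the Sham mice of the 6 genes that passed the filter. H2-DMb2 (NM_010388), the other beta chain, was 0.273 and 0.146 FPKM in Control, 0.448 and 0.601 in Sham and 0.568 and 1.415 in VSG mice. H2-DMb2 did not pass the filter, and among the H2-DM genes it alone had Sham mouse 2 above Sham mouse 1. The 2 beta chain genes are closely related copies. Of the stretches of 50 bases, the read length, in the annotated H2-DMb1 transcript, 27.1% were also in H2-DMb2 transcripts, so reads could have been split between them and their separate levels are uncertain. None of the stretches in H2-Aa, H2-Ab1, H2-Eb1, Cd74, Ciita or H2-DMa was found in a protein-coding transcript of another gene. Other transcripts were not searched.

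Ciita was barely detected. Its 5 rows summed to 0.068 and 0.051 FPKM in Control and 0.095 and 0.164 FPKM in Sham mice, and all 5 were listed at 0 in both VSG mice. The nonzero values of Control mouse 2 and the Sham mice came from 1 row, NM_001243761, whereas those of Control mouse 1 came from 3 others. A listed 0 can be a failed estimate. Ptprc (CD45), carried by every leukocyte, was also listed at 0 in both VSG mice, while Tyrobp, another leukocyte gene, was 11.7 and 40.3 FPKM there. The class II genes were thus readily measured in the VSG livers in which Ciita was listed at 0.

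Whether diet with sham surgery, or VSG, moved these genes was tested for the 6 that passed the filter, on log2(FPKM + 1), a scale that understates changes of low genes. limma's moderated test was fitted to all 9869 genes with Benjamini-Hochberg adjustment at a false discovery rate of 10%. None of the 6 passed in any comparison, and none had an unadjusted p under 0.05. The largest differences were between VSG and Control, and none was large enough against the spread between the mice of a group to be called.

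Sham mice had higher means than Control mice for 6 of 6 genes, with a median difference of 0.64 on the log2 scale against 0.04 for all genes tested. A difference above 0 was found in 52.8% of all genes. Cd74 had the largest value, 0.95 ± 0.69 (SE, n = 2 mice a group), with an adjusted p of 0.640 by limma. H2-Eb1 had the smallest adjusted p, 0.594 by limma, at 0.62 ± 0.38. Both Sham mice were above both Control mice for 3 of the 6 genes (H2-Eb1, H2-DMa and H2-DMb1), which was also the case in 25.4% of all genes. H2-DMa and H2-DMb1 passed the filter through operated mice alone, so the filter itself favoured this order for them. Over all genes limma called 28, or 0.284%, and 10.9% had an unadjusted p under 0.05. Without Sham mouse 2 the median difference of the 6 genes was 0.99, and without Control mouse 2 it was 0.40. Without Sham mouse 1, H2-DMa no longer passed the filter and the median of the other 5 genes was 0.21.

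VSG and Sham mice could not be separated by any of these genes. Of the 6, 5 had a higher mean in VSG mice, with a median difference of 0.25 on the log2 scale against 0.08 for all genes, of which 59.6% were above 0. The values ran from -0.20 ± 0.72 (SE) for H2-Ab1 to 0.46 ± 0.53 for H2-Aa, and the smallest adjusted p was 0.946 by limma (H2-DMb1). For none of the 6 were both VSG mice above both Sham mice, against 18.5% of all genes. limma called 5 genes of all tested, or 0.0507%, and 4.85% had an unadjusted p under 0.05. The direction rested on single mice: the median of the 6 genes was -0.12 without Sham mouse 2 and 0.77 without VSG mouse 1. Where H2-DMa dropped below the filter, the median of the other 5 genes was -0.10 without VSG mouse 2 and 0.64 without Sham mouse 1.

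VSG mice had higher means than Control mice for 6 of 6 genes, with a median difference of 0.88 on the log2 scale against 0.13 for all genes. H2-Aa was higher by 1.12 ± 0.53 (SE), Cd74 by 1.12 ± 0.69 and H2-Eb1 by 0.96 ± 0.38. H2-Eb1 came nearest to the threshold, with an unadjusted p of 0.0512 and an adjusted p of 0.527 by limma. Both VSG mice were above both Control mice for 5 of the 6 genes, all but H2-Ab1, which was the case in 33.7% of all genes. The 5 include H2-DMa and H2-DMb1, for which the filter favoured this order, as neither reached 1 FPKM in a Control mouse. Differences above 0 were found in 61.3% of all genes, and in 51.1% once the libraries were scaled to the same median, which moved the median of all genes by -0.11. On that scale the median of the 6 class II genes was 0.79. limma called 28 genes, or 0.284%, and 9.56% had an unadjusted p under 0.05. Without VSG mouse 1 the median of the 6 genes was 1.35. Without VSG mouse 2, H2-DMa dropped below the filter, the median of the other 5 genes was 0.52 and H2-Ab1 was -0.62. The comparisons share groups, so the values are given side by side and not as independent evidence.

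**Figure D2:**
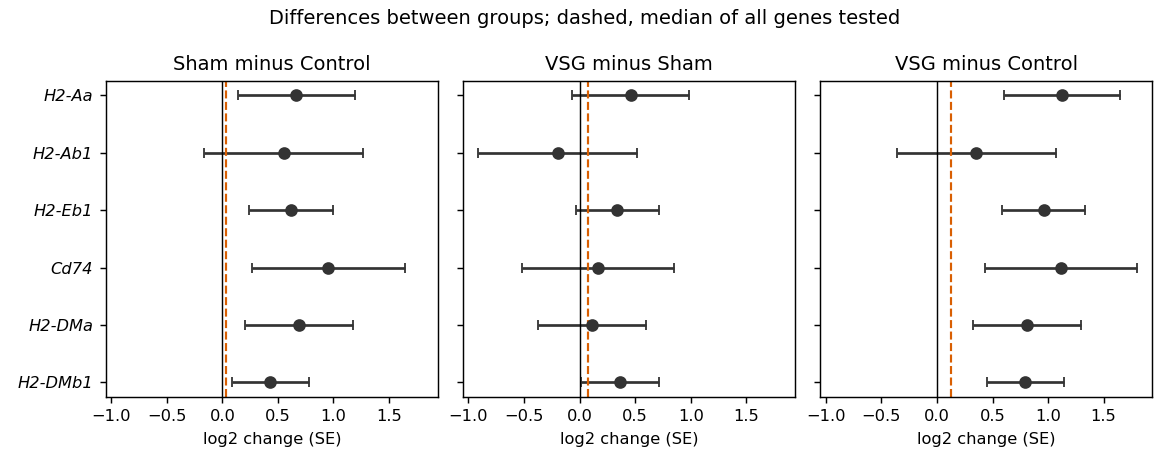
Differences between group means on the log2(FPKM + 1) scale for the 6 class II genes that passed the filter, as points with SE bars (n = 2 mice a group), for Sham minus Control, VSG minus Sham and VSG minus Control. The dashed line is the median of all 9869 genes (0.04, 0.08 and 0.13), and no point passed the 10% false discovery rate.

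The 2 genes below the filter were also fitted without it. H2-DMb2 differed by 0.69 ± 0.24 (SE) between VSG and Control mice, with an unadjusted p of 0.0378 and an adjusted p of 0.504 by limma, and all 4 operated mice were above both Control mice. Ciita differed by -0.17 ± 0.03 between VSG and Sham mice, with an unadjusted p of 0.00493 and an adjusted p of 0.535 by limma, on values listed at 0 in the VSG group. Between Sham and Control mice Ciita differed by 0.09 ± 0.03, with an unadjusted p of 0.0497 and an adjusted p of 0.474 by limma.

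Markers of the cells that can carry class II moved between these livers as well, and their part in the class II levels was not tested. All 12 Kupffer cell (resident macrophage) genes passed the filter. Their summed level was 54.9 and 37.5 FPKM in Control, 139.6 and 130.3 in Sham and 108.0 and 357.9 in VSG mice, and none was called in a comparison, although 4, 1 and 7 had an unadjusted p under 0.05 in Sham minus Control, VSG minus Sham and VSG minus Control (limma), against 10.9%, 4.85% and 9.56% of all genes. The most abundant were the complement genes C1qa, C1qb and C1qc, with C1qb at 6.91 FPKM in Control mouse 2 and 60.75 FPKM in VSG mouse 2. VSG mouse 2 was thus high for Kupffer cell genes and class II genes alike. The Sham mice differed: the class II sum was 2.36-fold higher in Sham mouse 1 than in Sham mouse 2, whereas the Kupffer cell sum was 1.07-fold and the sum of 6 genes shared by all leukocytes 1.09-fold higher. The class II sum per Kupffer cell sum was 0.747 and 0.674 in Control mice, 0.655 and 0.297 in Sham mice and 0.409 and 0.3003 in VSG mice, so it was highest in the Control livers, which had the lowest Kupffer cell sums.

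Genes of dendritic cells and lymphocytes were scarce. Of 10 dendritic cell genes, 1 passed the filter, Batf3, a transcription factor of cross-presenting dendritic cells, at 0.625 and 0.250 FPKM in Control, 1.335 and 0.652 in Sham and 0.579 and 1.51 in VSG mice. Batf3 was highest in Sham mouse 1 and VSG mouse 2, as most class II genes were, but it passed the filter through these livers alone. The dendritic cell sum ran from 2.13 to 2.33 FPKM in Control, 2.25 to 3.29 in Sham and 2.45 to 3.89 in VSG mice, with Sham mouse 1 and VSG mouse 2 again the highest. Its other leading genes were Clec9a, at 0.472 to 0.990 FPKM, and Zbtb46, at 0.292 to 0.596 FPKM, both highest in a Control mouse. None of 8 B cell genes passed, with sums of 0.474 to 0.515 FPKM in Control, 0.638 to 1.16 in Sham and 1.88 to 4.23 in VSG mice. Cd79b and Cd79a, the signalling chains of the B cell receptor, were highest in VSG mouse 2, at 1.49 and 0.887 FPKM, and Ms4a1 was at 0 in both Control mice. None of 8 T cell genes passed either, with sums of 0.994 to 3.06 FPKM over the 6 mice and Cd8b1, Cd3g and Cd4 the leading genes. Cd5 was at 0 in the Control and Sham mice.

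Monocyte genes had another order. Of 7 genes, 4 passed, and the sum was 11.3 to 13.3 FPKM in Control, 36.7 to 75.3 in Sham and 27.8 to 61.7 in VSG mice. Lyz2, which made up most of it, was 22.2 FPKM in Sham mouse 1 and 59.95 FPKM in Sham mouse 2, the reverse of the class II order there. Plac8 and Fcgr1 came next, at 4.22 to 10.39 and 0.142 to 1.65 FPKM. The leukocyte genes were led by Tyrobp, Cd52 and Laptm5. Their sum was 7.17 to 9.78 FPKM in Control, 36.1 to 39.4 in Sham and 27.1 to 67.4 in VSG mice, so the class II sum per leukocyte sum was 3.52 to 4.201 in Control mice and 1.07 to 2.32 in the operated mice. Of these monocyte and leukocyte genes none was called by limma, while 3 and 3 in Sham minus Control, 0 and 0 in VSG minus Sham and 1 and 4 in VSG minus Control had an unadjusted p under 0.05. The shares of all genes were 10.9%, 4.85% and 9.56% in the same order.

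**Figure D3:**
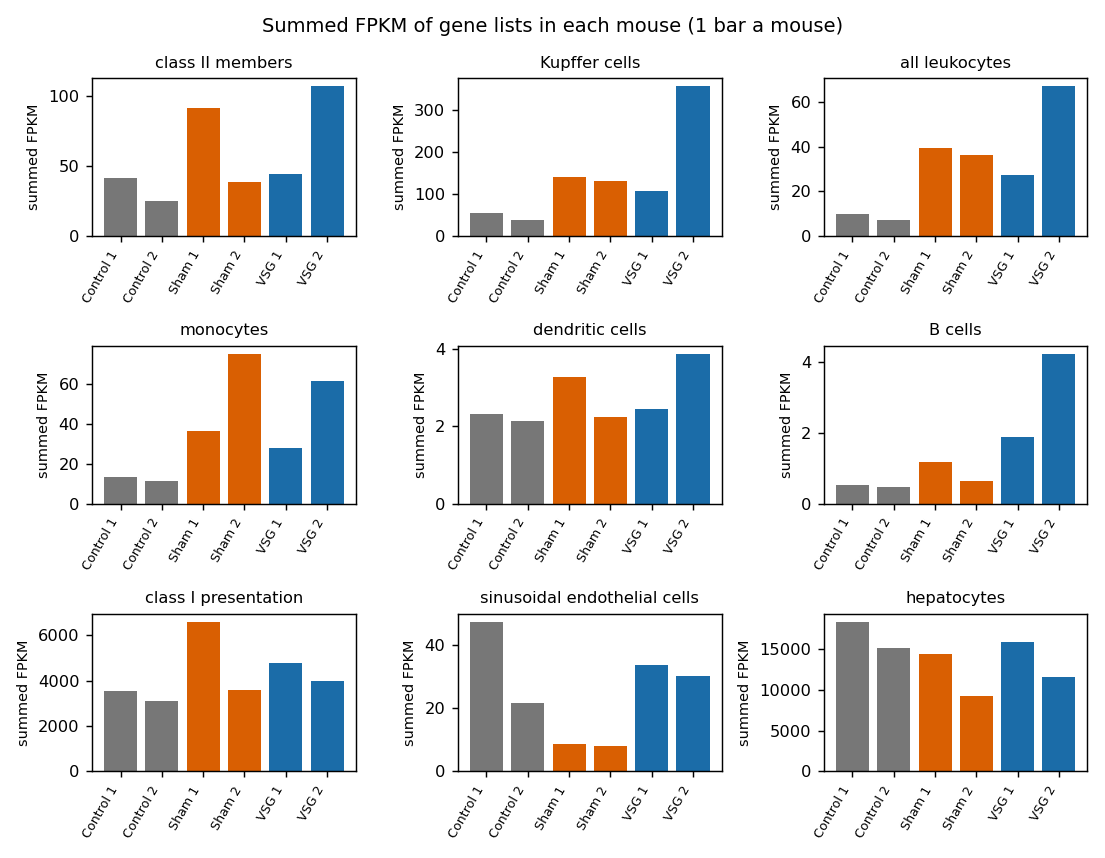
Summed FPKM of the class II genes and of 8 lists of marker or pathway genes in each of 6 livers, 1 bar a mouse, each panel with its own axis from 0. The class II sum is high in Sham mouse 1 (91.4) and VSG mouse 2 (107.5), the Kupffer cell sum in VSG mouse 2 alone (357.9), and the dendritic cell sum is highest in the same 2 livers as class II.

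The remaining cell types did not follow the class II order. Of 8 sinusoidal endothelial genes 7 passed, with sums of 21.6 to 47.4 FPKM in Control, 7.90 to 8.71 in Sham and 30.3 to 33.6 in VSG mice. Clec4g, Fcgr2b and Oit3 led them, and Oit3 was listed at 0 in both Sham mice and VSG mouse 2. Cholangiocyte genes (2 of 6 passing) were dominated by Spp1, at 28.5 and 29.4 FPKM in Control, 183.1 and 58.4 in Sham and 142.6 and 29.2 in VSG mice, followed by Sox9 and Krt19. Hepatocyte genes, of which 6 had a row and all 6 passed, were abundant as the tissue label says, with sums of 9189 to 18347 FPKM led by Apoa1, Ttr and Pck1. In that list Tat, a tyrosine-degrading enzyme, was lower in Sham than in Control mice by -2.84 on the log2 scale (adjusted p of 0.0445 by limma) and in VSG than in Control mice by -2.47 (adjusted p of 0.0679 by limma). Tat was the sole gene called among the lists, and of the endothelial, cholangiocyte and hepatocyte genes 3, 1 and 3 in Sham minus Control, 3, 1 and 1 in VSG minus Sham and 0, 0 and 1 in VSG minus Control had an unadjusted p under 0.05 (limma). In these comparisons 10.9%, 4.85% and 9.56% of all genes did.

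Summed together, genes of class II peptide loading and of lysosomes were much more abundant than the class II genes and differed less between the mice of a group. Single genes did not all do so. Ifi30 had a mean of 10.1 FPKM. Lgmn was 29.6 and 73.4 FPKM in Sham mice, where Lamp1 was 319 and 342 FPKM. Of 9 genes 8 passed. Their sum was 629 and 626 FPKM in Control, 878 and 1064 in Sham and 844 and 872 in VSG mice, with the lysosomal Lamp1, Ctsl and Ctsd at the head (means of 294, 189 and 155 FPKM). Ctss (cathepsin S), which trims Cd74 in antigen-presenting cells, was 5.32 and 4.74 FPKM in Control, 19.4 and 23.5 in Sham and 14.1 and 33.0 in VSG mice. Unlike Cd74, Ctss was higher in Sham mouse 2 than in Sham mouse 1. No gene of this list was called, and the smallest adjusted p was 0.288 (limma). An unadjusted p under 0.05 was found for 4, 0 and 4 genes in Sham minus Control, VSG minus Sham and VSG minus Control (limma). Among all genes it was found for 10.9%, 4.85% and 9.56%.

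Factors that act with or ahead of Ciita were low to moderate. All 11 passed and none was called. In the order of comparisons above, 2, 0 and 2 had an unadjusted p under 0.05 (limma), against 10.9%, 4.85% and 9.56% of all genes. Irf1, an interferon-induced activator, had the highest mean and was 9.30 and 8.59 FPKM in Control, 18.0 and 12.1 in Sham and 12.1 and 11.8 in VSG mice. Nfyc, a Y box subunit, was 4.91 to 12.5 FPKM. Rfx5, an X box subunit, was listed at 0 in Control mouse 2 and in VSG mouse 1. Irf1 was high in Sham mouse 1 and not in VSG mouse 2, where the class II genes peaked.

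Of 10 interferon gamma target genes 8 passed and none was called. An unadjusted p under 0.05 (limma) was found for 2, 0 and 1 of them, against 10.9%, 4.85% and 9.56% of all genes. The sum of the target genes was 59.3 and 46.6 FPKM in Control, 54.5 and 68.6 in Sham and 57.1 and 74.9 in VSG mice. Within the Sham group the sum thus ran against the class II order, but this rested on Iigp1. Its gap there, 0 in Sham mouse 1 against 23.8 FPKM in Sham mouse 2, was wider than that between the sums. A listed 0 can be a failed estimate. Iigp1, Igtp and Irf1 had the highest means, and Iigp1 was listed at 0 in Sham mouse 1 against 14.0 to 31.3 FPKM elsewhere. Cxcl10, a chemokine, was 1.57 and 0.520 FPKM in Control, 7.45 and 1.61 in Sham and 1.34 and 5.22 in VSG mice. Gbp2, Gbp3 and Cxcl9 were also highest in Sham mouse 1 and VSG mouse 2, while Socs1 (0.669 and 4.03 FPKM in Sham mice 1 and 2) and Irgm1 (listed at 0 and 9.35 FPKM) had the opposite order in the Sham group. These 6 were picked out after their values were seen, and Gbp2 passed the filter through Sham mouse 1 and VSG mouse 2 alone.

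MHC class I genes, which present peptides from inside the cell, were measured as the sister pathway. All 13 passed, and none was called, with a smallest adjusted p of 0.159 (limma, Tap2 in Sham minus Control). An unadjusted p under 0.05 (limma) was found for 6, 0 and 5 of them, against 10.9%, 4.85% and 9.56% of all genes. The sum was 3522 and 3086 FPKM in Control, 6606 and 3569 in Sham and 4796 and 3993 in VSG mice, and B2m, H2-K1 and H2-D1 led it. H2-D1 was 375.9 and 318.1 FPKM in Control, 924.4 and 540.0 in Sham and 621.1 and 587.8 in VSG mice. Class I and class II were thus both high in Sham mouse 1, at 1.85-fold and 2.36-fold over Sham mouse 2. In VSG mouse 2 the class II sum was 2.43-fold that of VSG mouse 1, whereas the class I sum was 0.833-fold.

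The genes whose profile over the 6 livers was nearest to the mean of the class II genes were low-abundance genes. Nearness was the root mean square difference of centred log2(FPKM + 1) values, with a median of 0.623 over 9863 genes. The 6 nearest were Siglece (0.0929), Treml4 (0.104), Gbp2 (0.133), Lilrb4a (0.159), Gbp8 (0.170) and 2310040G24Rik (0.179). Siglece, Gbp2, Lilrb4a and Gbp8 reached 1 FPKM in Sham mouse 1 and VSG mouse 2 alone. They passed the filter through these livers, so the filter itself favoured this profile. Siglece, a sialic acid receptor of myeloid cells, was 0.800 and 0.283 FPKM in Control, 1.71 and 0.813 in Sham and 0.770 and 2.54 in VSG mice. Treml4, a receptor of macrophages and dendritic cells, was 0.838 and 0.363, 2.05 and 1.06, and 1.24 and 3.69 FPKM in the same order. Among the class II genes themselves the difference ran from 0.0700 for H2-DMa to 0.324 for H2-Ab1. The values rest on 6 livers, and levels near 1 FPKM are compressed by the added 1 on this scale.

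The class II genes other than Cd74 and Ciita lie within 181018 bases of chromosome 17, from H2-DMa at position 34272127 to the end of H2-Eb1 at position 34453144 (NCBIM37). The FAIRE list of the Control group held 42204 peaks, that of the Sham group 52881 and that of the VSG group 44539. Each list pools both mice of its group, so presence of a peak has no replicate and no test, and signals are given as ranks within a list because the scale differed between lists. The lists also differ in length, which shifts these ranks, so ranks place a peak within its own list and were not compared between groups. A peak within 1000 bp of a start was present for 3 of the 8 genes in the Control list, 6 in the Sham list and 5 in the VSG list. Over all 22238 protein-coding genes the shares were 50.7%, 50.6% and 52%, so 3 of 8 lay below and 6 and 5 of 8 above the shares of all genes, on counts of 8 genes and without replicates. Taking 42204 peaks from each list left 3, 4 and 5 genes, since the Sham peaks at H2-DMb1 and Cd74 lay below that rank.

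The starts fell into 3 sets. H2-Aa, H2-Ab1 and H2-DMa had a peak in all 3 lists, as did 48.2% of all genes. H2-Eb1 and Cd74 had a peak in the Sham and VSG lists and not in Control, as did 1.12% of all genes. H2-DMb1 had a peak in the Sham list and in neither other list, as did 0.886% of all genes. H2-DMb2 and Ciita had none at a start in any list.

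At H2-Ab1 the Control peak spanned chr17:34400021-34400448, the Sham peak chr17:34399984-34400330 and the VSG peak chr17:34399997-34400429. Its summits lay 29, 41 and 38 bp before the start, between the last X box core and the last Y box shown above. It ranked above 50.4% of the Control list, 74.3% of the Sham list and 58.8% of the VSG list. At H2-Aa the summits lay 72, 71 and 69 bp before the start, and the peak ranked above 39.9%, 73.1% and 73.7% of the lists. At H2-Eb1 the Sham peak (chr17:34442604-34442891) and the VSG peak (chr17:34442646-34442977) both had their summit 74 bp before the start, inside the Y box that follows the X box core. They ranked above 69.9% and 61.1% of their lists, so they were not at the foot of the lists, while the Control list had no peak there. A further Sham peak lay 905 bp before the H2-Eb1 start.

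At H2-DMa the peak lay after the start, with summits 317, 349 and 307 bp into the gene in an exon as annotated, and ranked above 95.6%, 96.7% and 94.6% of the lists. It was the strongest peak near any of the 8 genes in all 3 lists. At H2-DMb1 the Sham peak (chr17:34289979-34290202) covered the start and ranked above 1.28% of its list, near the lowest signal listed. Both Sham and both VSG mice had more H2-DMb1 RNA than either Control mouse, while its start carried a peak in the Sham list and none in the VSG list.

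**Figure D4:**
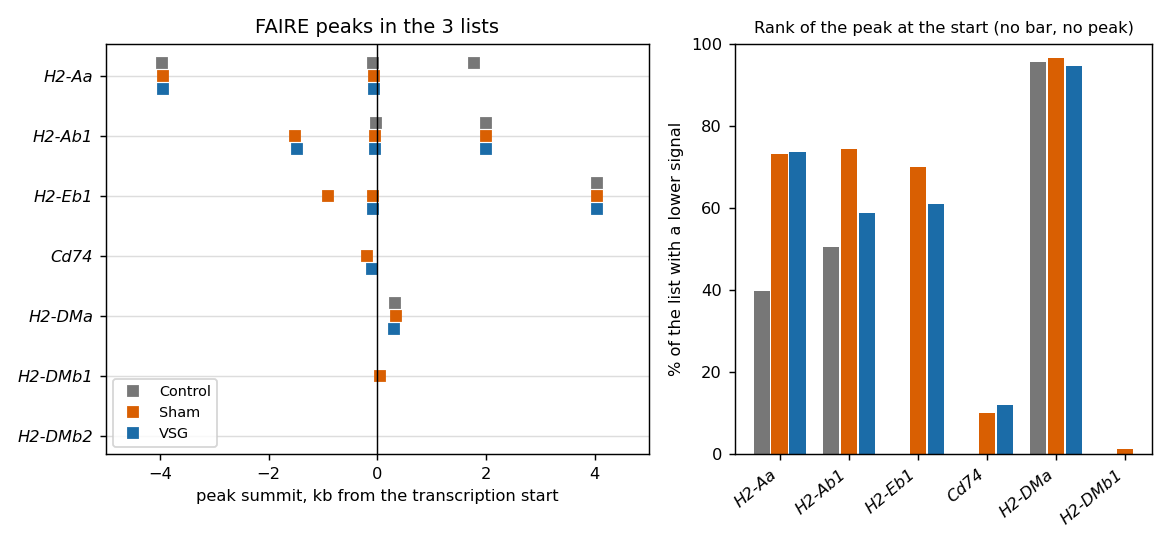
Left, distance of FAIRE peak summits from the transcription start (kb, negative before the start) for 7 class II genes in the pooled Control (grey), Sham (orange) and VSG (blue) lists. Right, percentage of each list with a lower signal than the peak at the start, where a missing bar is a missing peak, so H2-Eb1 and Cd74 have bars in Sham and VSG and H2-DMb1 (1.28%) in Sham.

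At Cd74, on chromosome 18, the Sham peak ended 26 bp before the start and the VSG peak covered it, with summits 194 and 92 bp before the start. They ranked above 10.1% and 12.0% of the lists, so both were weak. Cd74 was the most abundant class II RNA and had among the weakest peaks at its start, and H2-DMa, at most 2.61 FPKM, had the strongest. At Ciita, on chromosome 16, peaks lay 33.1 to 37.5 kb after the start, in the 3′ part of the gene. The pair at chr16:10524679-10525601 and chr16:10525696-10526273 (extent over the lists) was present in all 3 lists and ranked above 71.8% to 88.4% of them, and a further peak (chr16:10521350-10521612) was in the Sham and VSG lists.

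Within 5000 bp of the 8 genes the lists held 16 separate regions, of which 10 were in the Control list, 15 in the Sham list and 13 in the VSG list. Over the genome 59249 regions were found, with 68.8%, 87.7% and 72.5% in the 3 lists. Of the 16, 9 were in all 3 lists (55.2% of the genome's regions), 4 in Sham and VSG and not Control (10.3%), 2 in Sham alone (17.1%) and 1 in Control alone (5.32%). The 4 were the H2-Eb1 and Cd74 starts, that further Ciita peak and a region about 1.5 kb before H2-Ab1. Other regions in all 3 lists lay about 3.9 kb before H2-Aa, 2.0 kb into H2-Ab1, and 4.0 and 7.7 kb into H2-Eb1. Both intronic H2-Eb1 peaks were thus in the Control list, which had no peak at the H2-Eb1 start.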

How the data were processed

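The authors deposited FPKM values per RefSeq transcript for each mouse, from Cufflinks on mm9, and 1 FAIRE peak list per group, whose F-seq signal is the deposited value used here. Bowtie, TopHat2, HTSeq, DESeq2 and bedtools are also named in the submitters' processing notes. The labels describe poly(A) selection of the RNA and the methods ribosomal RNA depletion. The tables of the authors' own group comparisons and the lists of changed sites were not used. RefSeq rows were given symbols from a RefSeq table (34042 of 34933 matched, GRCm38.p6, names alone) and summed per gene. Genes with at least 1 FPKM in at least 2 of 6 mice entered 1 fit of 3 groups on log2(FPKM + 1) by limma (3.58.1, R 4.3.3), where the variance followed a mean trend, with Benjamini-Hochberg adjustment at 10%. The count test of the study was not possible on FPKM. The fit was tested on simulated data. Replicates are separate mice. Starts, exons and sequence came from the NCBIM37 annotation (GENCODE vM1), with the transcript numbered 001, otherwise 201. Peak positions are 1-based, and a peak counted where it overlapped by 1 bp the 1000 bp either side of a start of a protein-coding transcript.

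All 8 members were named, with the 3 genes of highest mean in each of 14 further lists, any list gene that was called, and the 6 genes of nearest profile, except 2 list genes that are not reported here. The members and lists were chosen with earlier results of these data known. Alternatives were a pseudocount of 0.1, no filter, median scaling, transcript rows, a replicate block, each mouse left out, a 5000 bp window, equal numbers of peaks and peaks of at least 250 bp.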

Additional observations from a re-analysis of the deposited data

How the results depend on the processing

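No class II gene was called in any comparison with a pseudocount of 0.1, no filter, median scaling, transcript rows or a replicate block. The number of all genes called was less stable than the members. For Sham minus Control it was 28 as reported, 64 without the filter, 9 with a replicate block and 0 to 168 with a mouse left out. For VSG minus Sham it was 5, and became 8 with a pseudocount of 0.1, 9 on transcript rows, 0 with a replicate block and 0 to 76 with a mouse left out. For VSG minus Control it was 28, then 10 with a replicate block and 0 to 34 with a mouse left out. The replicate numbers are shared by name alone: deviations of same-numbered mice correlated at 0.118 (Control and Sham), 0.0390 (Sham and VSG) and 0.0643 (Control and VSG) over 9869 genes, and the block changed no call of a member. Median differences of the members ran from 0.21 to 0.99 (Sham minus Control), -0.12 to 0.77 (VSG minus Sham) and 0.52 to 1.35 (VSG minus Control) with a mouse left out, where H2-DMa dropped below the filter without Sham mouse 1 or VSG mouse 2 and the values 0.21 and 0.52 are medians of the other 5 genes. Signs of single genes turned in VSG minus Sham with a mouse left out: H2-Ab1 from -1.17 to 0.77, Cd74 from -0.62 to 0.95, H2-Aa from -0.10 to 1.01, H2-DMa from -0.23 to 0.68 and H2-DMb1 from -0.055 to 0.78. H2-Ab1 also turned in VSG minus Control, from -0.62 to 1.33. The cause was not tested. Counts of starts with a peak moved within 1.5 times under every peak alternative. Relative depth limits low genes most: Ciita and H2-DMb2 rest on values near the floor of detection.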
